A study of Mus musculus with 11 samples.

Results

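The wild-type (WT) baseline of mouse fetal lung mesenchymal cultures is described here from the 4 libraries whose genotype label reads Sp3+/+, out of 11 libraries in the series. Membership rested on that label alone. The cells came from lungs at embryonic day 15 and were primary cells, passaged 2 times, with no transgene and no treatment named in their labels. Sp3+/+ embryos arise as littermates of mutants in matings of Sp3 heterozygous mice, a line whose strain background is not given in the sources used here. The other 7 libraries, 4 labelled Sp3+/- and 3 labelled Sp3-/-, are not compared here. What was measured is the number of 50 bp single end reads per gene, from libraries prepared from total RNA. Values are counts per 1000000 reads counted on genes (CPM) and follow one order throughout, namely libraries 468-4, 685-2, 697-1 and 697-3. Nothing states whether these are separate embryos, so the standard deviation (SD) between them may be partly technical.

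Fetal lung mesenchyme is the connective tissue around the branching airways. It lays down collagens, fibronectin, elastin precursors and basement membrane, and it signals to the epithelium with fibroblast growth factors, Wnts, bone morphogenetic proteins and retinoic acid, while the epithelium returns Sonic hedgehog. Airway and vascular smooth muscle, myofibroblasts, lipofibroblasts, pericytes and the mesothelial covering develop from or beside it. Selecting cells by adhesion to plastic, as was done here, keeps what attaches and grows, and the culture separates the mesenchyme from its epithelium. In a bulk library, fewer cells of a type and less RNA per cell cannot be told apart.

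Between 14113788 and 35351093 reads were counted on genes, with a median of 29805245. A level of 3 reads, taken as the floor, corresponded to 0.0849 to 0.213 CPM. Tallies not assigned to a gene made up 38.8% to 40.9% of a library, of which alignments that were not unique took the larger part, 31.8% to 33.7% of the library. Library 468-4 stood apart from the other 3. Its root mean square log2 difference from each of them was 0.51 to 0.58 over 9641 genes with a mean of at least 10 CPM, against 0.23 for 685-2 and 697-1 and 0.35 for 697-3 and either of these. Its title lacks the suffix 3 that the titles of the other 3 carry, and the labels do not explain that suffix. Counts of wide genes in a list and the ratios of genes that 468-4 sets apart are therefore given with and without it. The closest pair did not share the first number of its titles, since 697-1 was nearer to 685-2 than to 697-3.

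The mesenchymal identity of the cultures was checked against 6 markers, which do not bear on the genotype label. Fn1, the fibronectin gene, had 12634, 12257, 14881 and 16197 CPM. Col1a1, a type I collagen chain, had 4856, 8649.8, 8755 and 8618 CPM, lowest in 468-4 and level in the other 3. Col3a1, a type III collagen chain, had 1229.7, 2772, 2627 and 1822 CPM. Acta2, smooth muscle alpha-actin, had 5605, 5196, 5447 and 10382 CPM and stood out in 697-3. Each of these matrix and contractile markers exceeded 1000 CPM in all 4 libraries. Tbx4, a transcription factor of lung mesenchyme, was lower but present in every library at 34.3, 54.98, 60.3 and 63.0 CPM. Pdgfra, the receptor that marks alveolar fibroblast and myofibroblast precursors, was the uneven marker, with 24.3, 193, 143 and 44.0 CPM. It was 7.93 times higher in 685-2 than in 468-4, and 4.38 times higher in 685-2 than in 697-3 when 468-4 was left out.

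The promoters of 4 abundant genes are shown because expressed and silent genes differed in how often they carried the letters marked. A GC box (GGGCGG, read on both strands) is the site that Sp family factors bind, and a TATA box (TATAAA, both strands) positions the start of transcription at some strongly expressed genes. Each line gives the 250 bases before the start site from RefSeq, build GRCm38.p6, on the strand of the gene, with both motifs in capitals. Col1a2 (chr6:4505368-4505617, plus strand) and Bgn (chrX:73483351-73483600, plus strand) hold GC boxes only, Vim (chr2:13574061-13574310, plus strand) holds a TATA box only, and Anxa2 (chr9:69453433-69453682, plus strand) holds both.
Col1a2: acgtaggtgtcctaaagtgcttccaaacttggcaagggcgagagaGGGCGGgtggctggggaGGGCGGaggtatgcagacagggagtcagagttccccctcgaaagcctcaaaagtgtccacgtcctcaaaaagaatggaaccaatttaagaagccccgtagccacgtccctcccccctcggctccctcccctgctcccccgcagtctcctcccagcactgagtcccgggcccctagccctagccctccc
Bgn: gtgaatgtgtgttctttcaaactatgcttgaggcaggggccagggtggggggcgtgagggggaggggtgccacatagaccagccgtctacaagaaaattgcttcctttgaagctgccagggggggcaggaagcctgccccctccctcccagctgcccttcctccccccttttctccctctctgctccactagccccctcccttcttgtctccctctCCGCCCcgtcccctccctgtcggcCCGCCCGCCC
Vim: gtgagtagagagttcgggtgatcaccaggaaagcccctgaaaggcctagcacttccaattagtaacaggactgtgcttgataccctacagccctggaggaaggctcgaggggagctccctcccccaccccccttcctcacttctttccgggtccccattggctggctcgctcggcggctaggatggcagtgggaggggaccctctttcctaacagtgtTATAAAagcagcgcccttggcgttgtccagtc
Anxa2: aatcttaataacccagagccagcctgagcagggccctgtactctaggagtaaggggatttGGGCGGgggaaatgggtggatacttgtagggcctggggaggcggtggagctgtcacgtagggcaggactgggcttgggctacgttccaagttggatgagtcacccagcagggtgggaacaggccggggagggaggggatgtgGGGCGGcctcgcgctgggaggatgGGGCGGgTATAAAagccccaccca

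Col1a2 encodes the second chain of type I collagen, Bgn the proteoglycan biglycan, Vim the intermediate filament vimentin, and Anxa2 a calcium-dependent membrane-binding protein. Per length, Bgn reached 7316 ± 1812, Vim 4278 ± 212, Col1a2 3696 ± 1103 and Anxa2 2146 ± 169.9 length-scaled units (SD, n = 4). A length-scaled unit is the CPM of a gene divided by the exon length of its canonical transcript and rescaled to the same total in every library. Among the promoters of 9974 matched genes above 1 CPM in all 4 libraries, 60.9% held a GC box, against 32.9% of all 27025 promoters and 7.62% of the 3242 matched genes without a read in any of the 4. The share of G and C in these windows was 60.4%, 53.0% and 42.9%, so the box and the base composition moved together, and their separate parts were not tested. Of the 100 genes of highest length-scaled level, 76 had a promoter in the table, and 59.2% of these held a GC box. A TATA box stood in 18.4% of those 76 promoters (14), in 10.1% of the 398 matched among the 500 highest, in 13.0% of all 27025, in 6.10% of the promoters of expressed genes and in 27.7% of those of genes without a read. These shares describe letters in a window, not binding.

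Of 24062 genes in the files, 12505 were above 1 CPM in all 4 libraries, 13641 in at least 1, and 4938 had no read in any. A level above 100 CPM in all 4 was reached by 1779 genes, and above 1000 CPM by 72. Fn1 alone took 1.40 ± 0.187% of gene reads (SD, n = 4), the 25 genes of highest mean CPM took 11.8 ± 1.32%, and the 100 highest took 23.2 ± 1.42%. The share of these 25 was lowest in 468-4, at 10.4%, and highest in 697-3, at 13.4%. Extracellular matrix genes were 12 of these 25, and contractile genes were 4 (Acta2, Tagln, Tpm1 and Cald1).

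**Figure D1:**
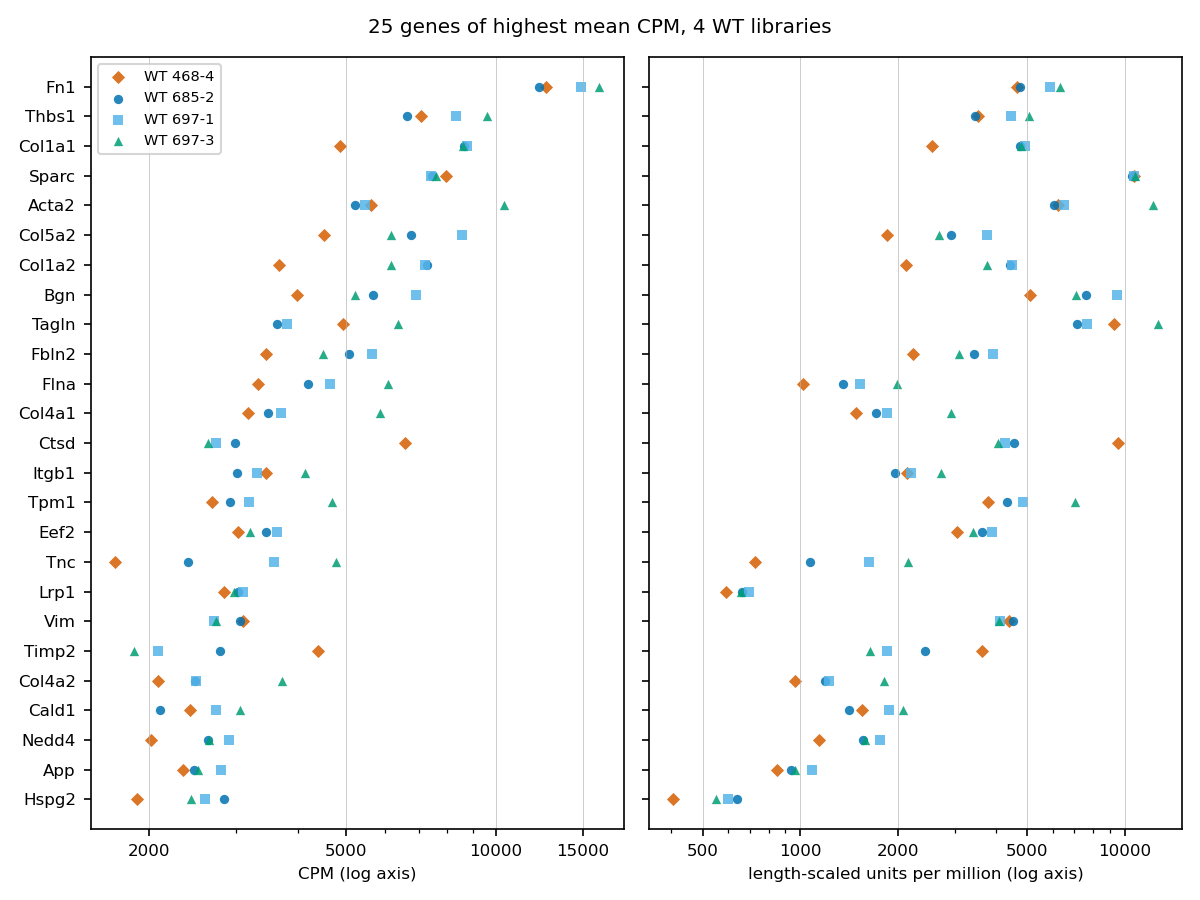
Levels of the 25 genes of highest mean CPM in each of the 4 WT libraries, as CPM (left) and per exon length in length-scaled units (right), both on log axes. Each point is 1 library, and Fn1 leads by reads in every library, whereas Sparc has the highest mean per length and Tagln and Acta2 exceed it in 697-3.

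By reads, Fn1 came first at 13992 ± 1871 CPM (SD, n = 4), followed by Thbs1 at 7914 ± 1334 CPM, Col1a1 at 7719.8 ± 1910.0 CPM and Sparc at 7594 ± 237 CPM. Thbs1 encodes thrombospondin 1, an adhesive glycoprotein that also activates latent TGF-beta, and Sparc encodes a collagen-binding glycoprotein. Sparc was among the steadiest abundant genes, with 7934, 7450.2, 7416 and 7574 CPM and a ratio of the highest to the lowest library of 1.07. Next came Acta2 at 6658 ± 2489 CPM, Col5a2 at 6498 ± 1666 CPM, Col1a2 at 6070.4 ± 1694 CPM and Bgn at 5435 ± 1209 CPM. Tagln, the actin-binding protein transgelin, reached 4674 ± 1256 CPM, and Fbln2, fibulin 2 of elastic fibres and basement membranes, 4654 ± 933 CPM. The rest of the 25 held the actin crosslinker Flna, the type IV collagen chains Col4a1 and Col4a2, the lysosomal protease Ctsd, the integrin chain Itgb1, Tpm1, the elongation factor Eef2, tenascin C (Tnc), the endocytic receptor Lrp1, Vim, the metalloprotease inhibitor Timp2, Cald1, the ubiquitin ligase Nedd4, the amyloid precursor App and the basement membrane proteoglycan Hspg2. Of the top 25, 18 genes were in the top 25 of each single library.

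Scaling by length changed the order. Of the 25 genes that led by reads, 14 stayed in the top 25 per length. Sparc then ranked first, at 10661 ± 121 length-scaled units (SD, n = 4), followed by Tagln at 9177 ± 2481, the calcium-binding protein S100a6 at 8580.0 ± 1024, the actin-sequestering peptide Tmsb4x at 8214 ± 437 and Acta2 at 7764 ± 2995. The SDs of Tagln, S100a6, Tmsb4x and Acta2 between libraries overlapped, which does not settle their order within a library. Sparc lay above S100a6 and Tmsb4x in every library. Bgn at 7316 ± 1812, the galectin Lgals1 at 7274 ± 616, Mgp at 6299 ± 4716, Fth1 at 6221 ± 5021 and Ctsd at 5623 ± 2633 length-scaled units followed. Fn1, with its long transcript, fell to 5408 ± 836 and was close to Tpm1 at 5005 ± 1422, Vim at 4278 ± 212, Col1a1 at 4246 ± 1139.9 and Thbs1 at 4127 ± 772 length-scaled units. Mgp, an inhibitor of calcification, was uneven at 3514, 8885, 11510.0 and 1286 length-scaled units, high in 685-2 and 697-1 and lowest in 697-3. Fth1, the ferritin heavy chain that stores iron, was 13728, 4188, 3212 and 3756 length-scaled units and Ctsd 9561, 4572, 4284 and 4076 length-scaled units, each highest in 468-4, with the other 3 within 1.33 times of each other for Fth1 and 1.13 times for Ctsd. Gamma-actin (Actg1), a cytoplasmic actin, had only 10.9, 12.5, 10.1 and 13.6 CPM. Beta-actin (Actb) had 1265, 1779, 1533 and 2366 CPM. Reads shared with near-identical copies are tallied as not unique and dropped, so the level of Actg1 is uncertain, as are those of ribosomal protein genes.

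The 5 matrix lists together held 74 genes and took 73719, 96594, 108473 and 103472 CPM, or 9.56% of gene reads on average. Of these genes, 70 were above 1 CPM in all 4 libraries, beside 52% of all genes of the files. Library 468-4 had the lowest sum, and the other 3 lay within 1.12 times of each other. Over all 9641 genes with a mean of at least 10 CPM, 10.4% differed by more than 2-fold between the highest and the lowest of the 4 libraries, and 2.42% by more than 4-fold. Among the matrix genes at that level, 31 of 65 passed 2-fold and 10 passed 4-fold. Without 468-4 the shares of all genes were 2.83% over 2-fold and 0.373% over 4-fold, and the matrix genes numbered 15 and 4. Their lowest value fell in 468-4 for 41 of the 65, as it did for 34.1% of all genes.

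Type I collagen led the collagen list, in which 12 of 14 genes were lowest in 468-4, beside 34.1% of all genes. For Col1a1 the other 3 libraries lay within 1.02 times of each other. Col1a2, its partner chain, had 3652, 7278, 7208 and 6145 CPM. Col5a2, a chain of the type V collagen that nucleates type I fibrils, had 4517, 6764, 8550.3 and 6159 CPM and peaked in 697-1. Per length, Col1a1 at 4246 ± 1139.9 and Col1a2 at 3696 ± 1103 length-scaled units (SD, n = 4) had overlapping SDs. Within each library, however, Col1a1 was the higher of these chains per length. Col3a1 was lower, at 1239 ± 444 length-scaled units. Col14a1, a fibril-associated collagen, had the widest range of the list, with 23.6, 38.1, 77.8 and 116 CPM. Its lowest value was in 468-4 and its highest in 697-3, 4.91 times apart, and without 468-4 the ratio was 3.05. The cartilage collagen Col2a1 had 0.255, 0.567, 0.325 and 1.06 CPM and was the 1 collagen of 15 not above 1 CPM in every library. Of the 14 collagens with a mean of at least 10 CPM, 6 passed 2-fold, and 4 did without 468-4, beside 10.4% and 2.83% of all genes.

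The basement membrane list summed to 13587 ± 2649.6 CPM (SD, n = 4) and was led by type IV collagen. Col4a1 had 3165, 3483, 3686 and 5856 CPM. Col4a2, the chain that pairs with it, had 2089.8, 2476, 2490.2 and 3714 CPM. Both were highest in 697-3. Hspg2, perlecan, had 1896, 2840.1, 2597 and 2428 CPM and was lowest in 468-4. Col18a1, whose fragment is endostatin, had 131, 35.6, 28.1 and 27.5 CPM. It was the 1 basement membrane gene highest in 468-4, and without that library its ratio fell from 4.75 to 1.29.

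Adhesive glycoproteins took the most reads of the 5 lists, with sums of 33577, 32626, 38692 and 41312 CPM that lay within 1.27 times. Fn1, Thbs1 and Sparc made up most of these reads. Tnc, a glycoprotein of branching and injured lung, had 1707, 2404, 3579 and 4777 CPM, lowest in 468-4 and highest in 697-3. Thbs2, a relative of Thbs1, had 109.6, 341, 542 and 205 CPM and the widest ratio of the list, 4.95 with all 4 libraries and 2.65 without 468-4. Spp1, osteopontin, had 1785, 1909, 2160.0 and 589 CPM and was low in 697-3 alone. Vtn, vitronectin, had no read in any of the 4 libraries. Fibronectin and thrombospondin were thus dominant and fairly even, while other members of the list differed by culture.

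Elastic fibre genes passed 2-fold more often than any other matrix list, in 11 of 16 genes, and 4 passed 4-fold. The shares of all genes were 10.4% and 2.42%, and without 468-4 they were 2.83% and 0.373%. Without 468-4 the numbers of elastic fibre genes were 2 and 2, so the lead of this list in the first count rested on that library. Fbln2 had 3439.9, 5062, 5624 and 4489 CPM. Fbn1, the main microfibril protein, had 747, 1820.0, 2206 and 1974 CPM. Ltbp2, a microfibril-binding protein, had 570.3, 1201, 1540.0 and 1299 CPM. Each was lowest in 468-4, and the other 3 libraries lay within 1.25, 1.21 and 1.28 times. Eln, which encodes the tropoelastin of the elastic core, behaved differently, with 132, 987, 1479 and 336 CPM. It was high in 685-2 and 697-1 and low in 468-4 and 697-3, 11.2 times apart at the extremes and 4.397 times without 468-4. Mfap4, which binds elastin and microfibrils, had 3.42, 29.5, 77.3 and 11.8 CPM, the same order of libraries, and its ratio was 22.6 with 468-4 and 6.55 without it.

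In the proteoglycan list Bgn took most reads, with 3971, 5654, 6900.4 and 5213 CPM. Decorin (Dcn), a small proteoglycan that binds collagen fibrils, had 503, 336, 389 and 504 CPM and did not share the dip of Bgn in 468-4. Aspn, asporin of the same family, had 17.7, 54.6, 131 and 21.2 CPM. Ogn, osteoglycin, had 101, 250.3, 499 and 123 CPM. Both peaked in 697-1. Mgp, described above per length, is in none of the 5 matrix lists. It was 8.83 times apart in CPM between 697-1 and 697-3, with 689.9, 1663, 2104 and 238 CPM.

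Enzymes that fold and crosslink collagen passed 2-fold in 3 of 15 genes, and in 0 without 468-4, beside 10.4% and 2.83% of all genes. All 15 were above 1 CPM in all 4 libraries, beside 52% of all genes of the files. Of the 15, 11 were lowest in 468-4, beside 34.1% of all genes. Lox, the lysyl oxidase that starts crosslinking, had 2107, 2229, 3006 and 1873 CPM. Serpinh1, the collagen chaperone, had 1557, 1770.2, 2139 and 1753 CPM. P4hb, a subunit of prolyl hydroxylase, had 1625, 1819, 1735 and 1572 CPM and was nearly level. The widest was the procollagen enhancer Pcolce with 172, 519, 506 and 266 CPM, which was lowest in 468-4, as type I collagen was, and lay within 1.95 times in the other 3.

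Among matrix proteases and their inhibitors, the inhibitors took most reads. Timp2 had 4387, 2787, 2082 and 1867 CPM. Timp3 had 2246, 1744, 1258 and 1420.0 CPM. Both metalloprotease inhibitors were highest in 468-4. The membrane-bound protease Mmp14 had 511, 787, 772 and 871 CPM, and the gelatinase Mmp9 was low at 0.453, 0.921, 0.730 and 2.34 CPM.

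**Figure D2:**
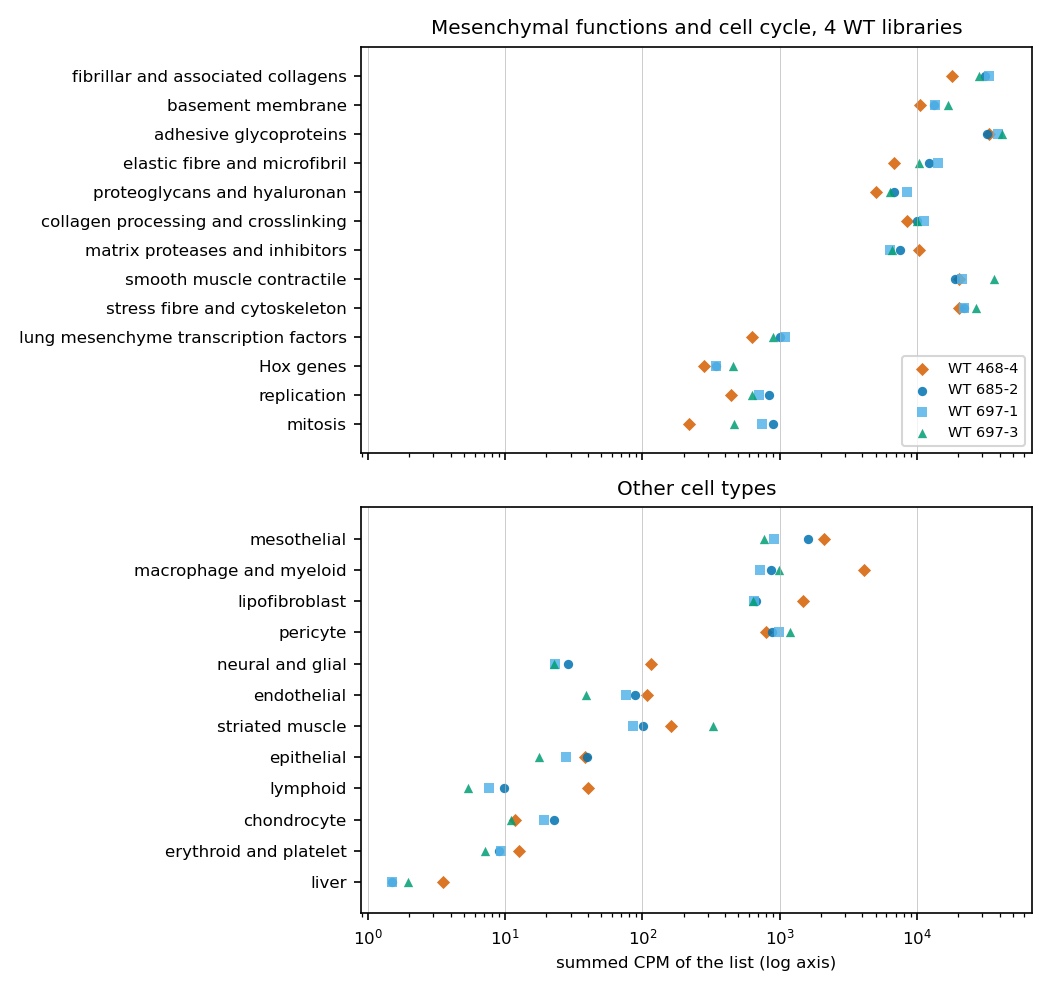
Summed CPM of gene lists in each of the 4 WT libraries on a log axis, for mesenchymal functions and cell cycle (top) and for other cell types (bottom). Each point is 1 library. Library 468-4 lies apart upward in the macrophage, glial, lymphoid and lipofibroblast sums and is lowest in mitosis. The lymphoid sum is mostly the single gene Il7r. Library 697-3 lies apart upward in the contractile sum.

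The smooth muscle contractile list took 20238, 19074, 21271 and 36136 CPM. Library 697-3 was 1.79 times the mean of the other 3, which lay between 19074 and 21271 CPM. Of 14 contractile genes with a mean of at least 10 CPM, 13 were highest in 697-3, as were 15.2% of all genes at that level. Of the 14, 8 passed 2-fold, and 6 did without 468-4, beside 10.4% and 2.83% of all genes. Acta2, given above, was 2.00 times higher in 697-3 than in 685-2. Tagln had 4928, 3619, 3802 and 6347 CPM. Tpm1, a tropomyosin, had 2682, 2917, 3188 and 4687 CPM. Mylk, the myosin light chain kinase that triggers contraction, had 152, 273, 406 and 677 CPM and the widest ratio of the list, 4.45 with all 4 libraries and 2.48 without 468-4. Myh11, the myosin of mature smooth muscle, had 482, 588, 787 and 1757 CPM. Myocd, the cofactor that switches on smooth muscle genes, was low at 1.33, 2.27, 3.25 and 3.35 CPM. Smooth muscle genes were thus expressed in all 4 cultures, and most strongly in 697-3.

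The general stress fibre and cytoskeleton list was highest in 697-3 for 17 of 20 genes, beside 15.2% of all genes, and 0 of the 20 passed 2-fold, beside 10.4%. Flna had 3323, 4191, 4634 and 6071 CPM. Myh9, a nonmuscle myosin, had 1648, 1879, 1839.5 and 2392 CPM. Both were highest in 697-3. Vim had 3100.5, 3049, 2709 and 2726 CPM, within 1.14 times across all 4.

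Lung mesenchymal transcription factors were expressed at modest levels. Of 20, 19 were above 1 CPM in all 4 libraries, beside 52% of all genes of the files. Of 17 with a mean of at least 10 CPM, 10 passed 2-fold (6 without 468-4), beside 10.4% of all genes (2.83% without 468-4). Of the 17, 11 were lowest in 468-4, beside 34.1% of all genes. Prrx1, a fibroblast homeobox factor, took the most reads of the list and was the widest of those with a mean of at least 10 CPM, with 93.9, 274, 348 and 132 CPM. Its ratio was 3.71 with all 4 libraries and 2.65 without 468-4. Its level was high in 685-2 and 697-1, as Eln was. Zeb1, a repressor of epithelial genes, had 84.9, 108, 119 and 106 CPM. Foxf1, which Hedgehog signaling induces in lung mesenchyme, had 27.6, 47.7, 47.8 and 56.6 CPM. Tbx5, partner of Tbx4 in lung budding, had 23.2, 41.9, 48.7 and 38.4 CPM. Tcf21, a factor of lung fibroblast precursors, was lower at 1.98, 7.65, 11.7 and 3.35 CPM. Meox2 was the exception, with at most 2 reads in a library.

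The Hox list records position along the body axis. Of 39 genes, 18 were above 1 CPM in all 4 libraries, beside 52% of all genes of the files, and 15 in none. Of 12 with a mean of at least 10 CPM, 10 were highest in 697-3, beside 15.2% of all genes. Hoxa5, which the fetal lung mesenchyme requires, had 34.2, 67.2, 64.0 and 67.7 CPM. It was lowest in 468-4 and within 1.06 times in the other 3. Hoxb3 had 31.2, 53.4, 62.7 and 64.3 CPM, and Hoxb4 had 24.9, 35.6, 31.0 and 43.2 CPM. Hoxb9, a more posterior gene, had 39.0, 18.6, 19.1 and 39.98 CPM and was high in 468-4 and 697-3. Genes of paralogue groups 10 to 12 were at or under 0.481 CPM, and Hoxc10, Hoxd10 and Hoxd12 had no read. Hoxc13, of the last group, was above 1 CPM in every library, with 4.16, 1.91, 1.26 and 2.37 CPM.

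Sp3, the factor the series is about, had 92.7, 62.9, 108 and 76.0 CPM. Its relative Sp1, which binds the same GC box, had 125, 139.6, 153 and 122 CPM. No Sp or Klf gene with a mean of at least 10 CPM passed 2-fold (0 of 10 genes, beside 10.4% of all genes). Klf6 took the most reads of the family, with 239, 169, 196 and 176 CPM. Klf4, a factor shared with smooth muscle and stem cells, had 83.4, 87.9, 71.3 and 55.3 CPM.

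**Figure D3:**
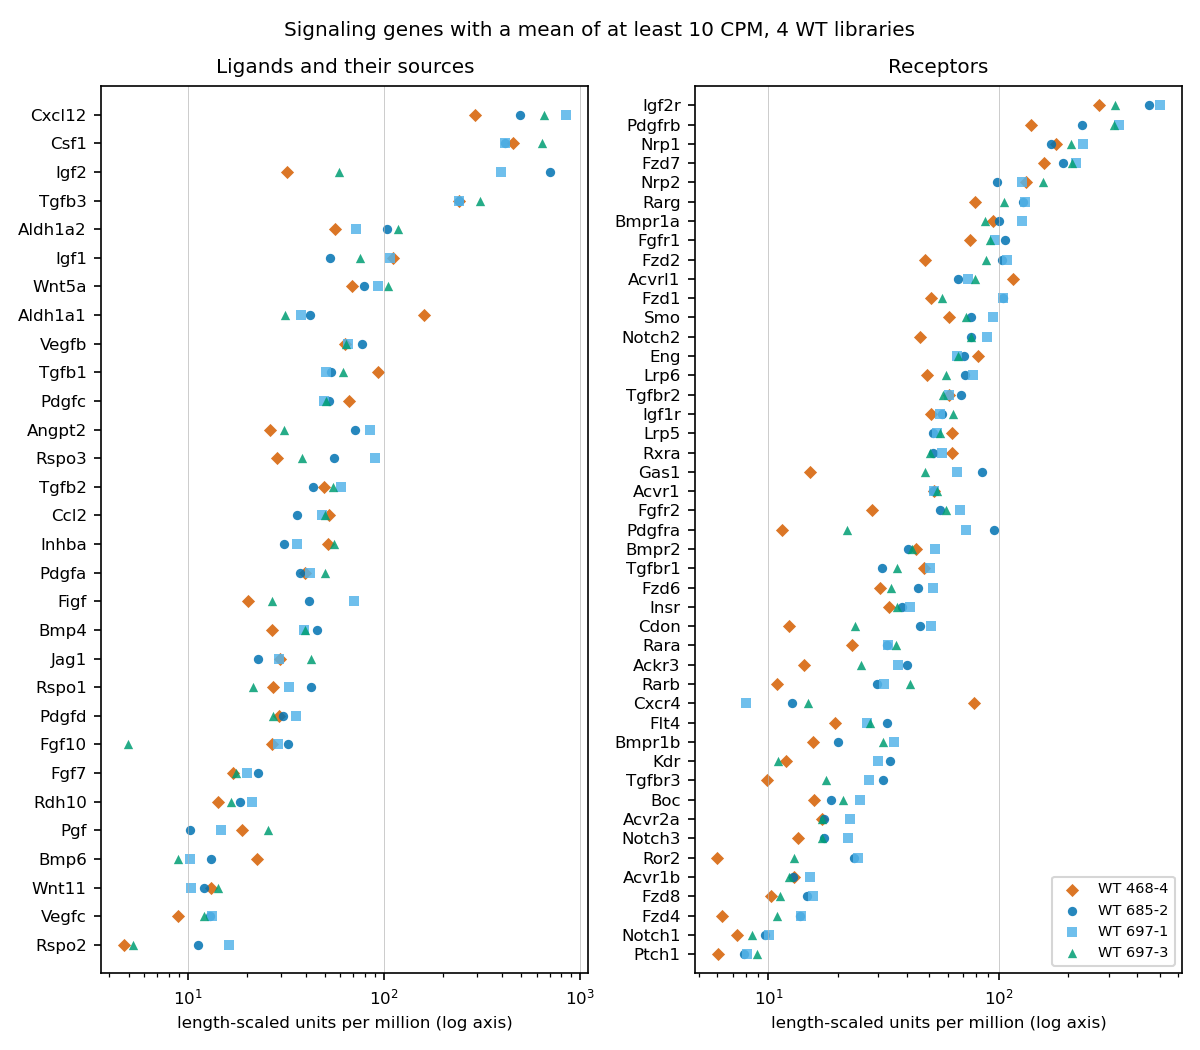
Length-scaled levels of ligands with their sources (left) and receptors (right) of the signaling lists in each of the 4 WT libraries, on log axes, for genes with a mean of at least 10 CPM. Each point is 1 library. Cxcl12 and Igf2r have the highest means, and Igf2 and Cxcr4 the widest ranges.

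Signaling genes were described by role. Of 58 ligands or ligand-producing enzymes, 45 were above 1 CPM in all 4 libraries and 9 in none. Of 52 receptors, 50 were above 1 CPM in all 4, and 2 were above it in none, among them Fgfr4. Of 49 targets, modulators and carriers, 40 were above 1 CPM in all 4. Over all genes of the files, 52% were above 1 CPM in all 4.

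Ligands that mesenchyme sends to the epithelium were present. Fgf10, the signal that drives airway branching, had 38.6, 44.6, 38.6 and 6.72 CPM. It was level in 3 libraries and 6.64 times lower in 697-3 than in 685-2. Fgf7, which acts on the same epithelial receptor, had 16.4, 20.9, 18.0 and 16.0 CPM, with no such dip. Fgf9, a ligand of mesothelium and epithelium, had 5.77, 3.26, 6.21 and 5.92 CPM. Wnt5a, a noncanonical Wnt of distal mesenchyme, had 160.0, 177, 203 and 229 CPM. Wnt2, the canonical Wnt known from early lung mesenchyme, had only 4.72, 2.69, 1.46 and 2.29 CPM. Per length the means were 86.6 ± 15.7 length-scaled units for Wnt5a and 2.51 ± 1.16 for Wnt2 (SD, n = 4). Rspo3, an R-spondin that amplifies Wnt signals, had 39.0, 72.1, 115 and 49.1 CPM and peaked in 697-1. The epithelial ligand Shh had 1 read in 697-1 and none elsewhere, under the floor. Wnt7b, a Wnt of airway epithelium, had 0.198, 0.0709, 0.162 and 0.2002 CPM.

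The receptors for these signals were in place. Fgfr1 had 148, 200.3, 178 and 171 CPM. Fgfr2 had 51.0, 96.1, 115 and 101 CPM and was lowest in 468-4. The Wnt receptor Fzd7 had 151, 173, 193 and 187 CPM, and the coreceptor Lrp6 had 153, 213, 225 and 174 CPM. Ror2, the coreceptor that binds Wnt5a, had 7.72, 28.8, 29.2 and 15.7 CPM and was the widest of the Wnt genes above 10 CPM, with a ratio of 3.78, or 1.86 without 468-4. Among modulators, the secreted Wnt inhibitor Dkk2 had 76.0, 70.0, 107 and 177 CPM. Sfrp1, another, had 30.6, 65.5, 78.6 and 48.6 CPM. Of the 10 Wnt targets and modulators, 6 were above 1 CPM in all 4 libraries, beside 52% of all genes of the files. Axin2 and Lef1, which canonical Wnt induces, were low. Axin2 had 2.43, 2.98, 1.83 and 1.43 CPM, and Lef1 had 2.01, 0.709, 0.365 and 1.12 CPM.

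All 7 Hedgehog genes with a mean of at least 10 CPM were lowest in 468-4, beside 34.1% of all genes. The transducer Smo had 79.8, 94.0, 115 and 89.2 CPM. The receptor Ptch1, itself a target of the pathway, had 16.1, 19.8, 19.97 and 22.4 CPM. Differences were wider in the coreceptors. Cdon had 30.0, 106, 116 and 54.99 CPM, and Gas1 had 14.4, 76.8, 58.5 and 43.2 CPM. Gli2, the activator that acts upstream of Gli1, had 2.69, 18.4, 21.2 and 13.96 CPM and was 7.88 times apart with 468-4 but 1.52 times without it. Gli1, a further target, was low at 0.594, 1.06, 0.893 and 0.801 CPM. Hhip, an inhibitor that the pathway induces, had 0.113, 0.921, 0.933 and 0.114 CPM.

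TGF-beta genes were expressed throughout, with all 17 above 1 CPM in all 4 libraries, beside 52% of all genes of the files. Tgfb3 took the most ligand reads, with 323, 307, 301 and 389.7 CPM. Per length it reached 258 ± 33.9 length-scaled units against 65.0 ± 19.6 for Tgfb1 and 52.3 ± 7.41 for Tgfb2 (SD, n = 4). Tgfb1 had 66.7, 36.6, 33.6 and 41.9 CPM and was highest in 468-4. The receptor Tgfbr2 was steady at 167, 178, 155 and 148 CPM. The list summed to 3749, 1994, 2021 and 2958 CPM. Of 16 genes with a mean of at least 10 CPM, 3 passed 2-fold and 1 passed 4-fold, beside 10.4% and 2.42% of all genes. Without 468-4 the numbers were 2 and 0, beside 2.83% and 0.373% of all genes. The target Ctgf, connective tissue growth factor, had 885, 374, 499.6 and 865 CPM. It was higher in 468-4 and 697-3 than in 685-2 and 697-1, and the coreceptor Tgfbr3 was the reverse, with 19.3, 59.1, 49.8 and 32.9 CPM.

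In the BMP list the secreted antagonist Grem1 took most reads, with 1023, 784, 1019 and 657 CPM. The ligand Bmp4 had 24.1, 39.3, 32.7 and 33.7 CPM. Bmp6 had 26.1, 14.5, 11.1 and 9.75 CPM and was highest in 468-4. The receptor Bmpr1a had 184, 187, 231 and 161 CPM, and Bmpr2 had 183, 161, 206 and 166 CPM. Both receptors lay within 1.43 times across the libraries. Id3, a target of the pathway, had 88.5, 110.3, 144 and 93.2 CPM. Bmp7 was at or below 0.425 CPM in every library.

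The PDGF and IGF families held both steady and wide members. Pdgfrb, the receptor of pericytes and mural cells, had 239.6, 383, 540.4 and 519 CPM. Unlike Pdgfra, it stayed within 1.41 times among the 3 libraries other than 468-4. The ligand Pdgfa had 34.6, 31.1, 34.4 and 41.2 CPM. Igf2, the fetal insulin-like growth factor, had 38.5, 799, 442 and 67.0 CPM, high in 685-2 and 697-1 and low in 468-4 and 697-3. Igf1 had 253, 115, 229 and 163 CPM, without that pattern. The receptor Igf2r, which clears Igf2, had 785, 1238, 1345 and 867 CPM. The signaling receptor Igf1r had 204, 218, 207 and 239.7 CPM. Igfbp2, a carrier of both factors, had 268, 44.8, 33.6 and 100.1 CPM, high where Igf2 was low.

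Stromal cytokines were among the most abundant ligands. Cxcl12, a chemokine of stromal cells, had 530.0, 861, 1442 and 1132 CPM. Its receptor Cxcr4 had 45.7, 7.09, 4.38 and 8.24 CPM, highest in 468-4, where Cxcl12 was lowest. Csf1, on which macrophages depend, had 618, 534, 524 and 812 CPM and was present in all 4. In the retinoic acid list, the embryonic synthase Aldh1a2 had 49.4, 86.7, 58.7 and 96.6 CPM. The receptor Rarg had 69.1, 106, 106 and 87.5 CPM. The degrading enzyme Cyp26a1 had 2 reads in 468-4 and none elsewhere. Notch2 had the most reads of the Notch receptors, with 156, 246, 283 and 242 CPM, and Jag1 of the ligands, with 54.7, 40.3, 50.4 and 74.7 CPM. Dll4, of endothelial tips, was at or below 0.122 CPM. The coreceptor Nrp1 had 294, 265, 357 and 323 CPM, and Angpt2 had 39.3, 102, 119 and 43.8 CPM, high in 685-2 and 697-1.

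Epithelium was barely detected, with 2 of 18 genes above 1 CPM in all 4 libraries, beside 52% of all genes of the files. Epcam, an adhesion protein of all epithelia, had 0.283, 0, 0.0406 and 0.0286 CPM. E-cadherin (Cdh1) had 0.368, 0.283, 0 and 0 CPM. Nkx2-1, the lung and thyroid factor, had 0, 1.20, 0.568 and 0 CPM. The defining markers were thus near or under the floor in most libraries. The list summed to 38.2, 39.3, 27.6 and 17.5 CPM, most of it Krt18, a keratin that other cells also express, with 19.4, 26.2, 22.4 and 11.9 CPM. Sftpc, the surfactant protein of distal epithelium, had 66 reads or 4.68 CPM in 685-2 and at most 1 read elsewhere.

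Lymphoid, red cell and liver lists were also low. Cd3e of T cells had no read. The lymphoid sum of 40.2, 9.85, 7.63 and 5.32 CPM was mostly Il7r, a receptor that fetal macrophages can also express, with 39.2, 7.79, 6.09 and 4.75 CPM. The erythroid and platelet list summed to 12.6, 9.07, 9.29 and 7.18 CPM. The liver list summed to 3.54, 1.49, 1.502 and 1.97 CPM, with Alb, albumin, at or below 0.0858 CPM. Muscle and cartilage regulators were likewise low. Myod1, of skeletal muscle, had no read, and Nkx2-5, of heart, had at most 2. Acta1, the skeletal actin, nevertheless had 144, 81.1, 67.0 and 310.5 CPM, highest in 697-3 as the smooth muscle genes were. Sox9 was the 1 cartilage gene above 1 CPM in all 4, with 8.68, 13.5, 9.21 and 6.12 CPM.

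Macrophage genes were present in every culture, with 15 of 18 above 1 CPM in all 4 libraries, beside 52% of all genes of the files. They summed to 4118, 870.1, 724 and 996 CPM. Library 468-4 was 4.77 times the mean of the other 3, which lay within 1.38 times of each other. All 15 genes with a mean of at least 10 CPM were highest in 468-4, beside 35% of all genes, and 13 passed 4-fold, beside 2.42%. Without 468-4, 0 of the 15 passed 2-fold, beside 2.83% of all genes. Lyz2, lysozyme, had 2179.8, 477, 398 and 617 CPM. Ctss, cathepsin S, had 400.1, 53.8, 40.8 and 52.8 CPM. The defining genes moved with them. Csf1r, the receptor for Csf1, had 164, 31.9, 32.0 and 38.8 CPM. Tyrobp, an adaptor of myeloid receptors, had 151, 25.3, 20.6 and 26.3 CPM. Ptprc, the leukocyte antigen CD45, had 59.5, 10.5, 11.8 and 11.3 CPM. In each of these 5 genes the 3 other libraries were well above the floor. The neutrophil genes S100a8, S100a9 and Mpo were at or under 1.10 CPM.

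Mesothelial genes mark the sheet that covers the lung. All 9 genes measured were above 1 CPM in all 4 libraries, beside 52% of all genes of the files. The sums of 2121, 1605, 914 and 771 CPM placed 468-4 and 685-2 above 697-1 and 697-3. Upk3b, a uroplakin, had 607, 553, 297 and 318 CPM. Msln, mesothelin, had 300.1, 320.4, 143 and 79.0 CPM. The transcription factor Wt1 was more even, with 38.6, 44.2, 25.4 and 36.7 CPM. Aldh1a1, a retinal dehydrogenase found in mesothelium and other cells, was the widest of the list, with 319, 79.7, 70.6 and 59.4 CPM.

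Endothelial genes were low and uneven, with 5 of 14 above 1 CPM in all 4 libraries, beside 52% of all genes of the files. Kdr, the main VEGF receptor, had 22.8, 61.1, 53.2 and 19.9 CPM. Pecam1 had 7.75, 0.283, 0.122 and 0.172 CPM. VE-cadherin (Cdh5) had 8.995, 0.425, 0.243 and 0.143 CPM. Kdr was thus highest in 685-2 and 697-1, whereas Pecam1 and Cdh5 were at or near the floor there and highest in 468-4. Glial genes were also highest in 468-4. Sox10, the defining factor of neural crest glia, had 18.7, 3.33, 1.79 and 1.77 CPM. The glial and neural list summed to 115, 28.9, 23.1 and 22.5 CPM, and 7 of its 12 genes were above 1 CPM in none.

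Lipofibroblast genes, of fibroblasts that store neutral lipid, summed to 1479, 677, 654 and 635 CPM. Plin2, which coats lipid droplets, had 332, 157, 141 and 166 CPM. Cd36, a fatty acid transporter, had 424, 59.7, 58.7 and 42.4 CPM. Lpl, lipoprotein lipase, had 293, 78.6, 72.6 and 61.6 CPM. All 3 are also expressed by macrophages, and all 3 were highest in 468-4, where the macrophage sum was 4118 CPM against 724 to 996 CPM in the others. The part of macrophage RNA in these values was not tested. Of the 10 list genes with a mean of at least 10 CPM, 7 were highest in 468-4 and 2 were lowest there, beside 35% and 34.1% of all genes. The 2 were the adiponectin receptor Adipor2, with 113, 132, 133 and 122 CPM, and Limch1, with 41.7, 67.5, 85.3 and 103 CPM. Of these 10, 8 passed 2-fold, and 1 did without 468-4, beside 10.4% and 2.83% of all genes. Without 468-4 the lipofibroblast sums lay within 1.07 times. The same library also had the highest Fth1, Ctsd and Timp2, and the part of macrophage RNA in these values was not tested either. Of 10 pericyte genes, 6 were above 1 CPM in all 4 libraries, beside 52% of all genes of the files. Another 3 were above it in none, 1 of them without a read. Pericyte genes were led by Pdgfrb and by Mcam, an adhesion protein, with 259.6, 244, 261 and 519 CPM. Cspg4, the NG2 proteoglycan, had 69.3, 145, 70.8 and 41.9 CPM and was highest in 685-2.

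All 4 cultures expressed cell cycle genes. The mitosis list summed to 218, 893, 739 and 465 CPM, and the mean of the other 3 libraries was 3.21 times that of 468-4. Without 468-4 the sums were 1.92 times apart. All 14 genes with a mean of at least 10 CPM were lowest in 468-4, beside 34.1% of all genes. All 14 passed 2-fold and 10 passed 4-fold, beside 10.4% and 2.42% of all genes. Without 468-4, 4 passed 2-fold and 0 passed 4-fold, beside 2.83% and 0.373% of all genes. Mki67, the Ki-67 antigen of cycling cells, had 57.3, 198, 157 and 99.7 CPM. Top2a, which untangles chromosomes, had 40.1, 172, 149 and 86.2 CPM. The kinase Plk1, the widest, had 4.24, 28.2, 20.7 and 14.4 CPM. In each, 685-2 was highest and 468-4 lowest. DNA replication genes varied less, with sums of 445, 834, 711 and 629 CPM. Rrm1, the constant subunit of ribonucleotide reductase, had 149.98, 248, 215 and 196 CPM. Rrm2, its S phase subunit, had 23.0, 71.8, 59.5 and 51.0 CPM.

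The list of cell cycle inhibitors and G1 genes summed to 4261, 3727, 3448 and 3789 CPM, with a median of 111 CPM per gene. Of 14 with a mean of at least 10 CPM, 3 passed 2-fold, and 0 did without 468-4. The shares of all genes were 10.4% and 2.83%. Cdkn1a, the p53 target p21, had 1288, 1016, 1011 and 1165 CPM. Cyclin D2 (Ccnd2) had 1269.7, 1059, 987 and 1206 CPM. Neither passed 2-fold. Cdkn2a, which encodes p16 and p19 and is known to rise as cells are passaged, had 240.4, 72.8, 65.1 and 68.1 CPM. It was highest in 468-4 and within 1.12 times in the other 3.

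Imprinted growth genes split in their spread. Grb10, a brake on insulin-type receptors, had 805, 1908, 2026 and 1409 CPM. Peg3, a paternally expressed zinc finger gene, had 489.6, 725, 824 and 886 CPM. These were 2.52 and 1.81 times apart. Igf2 and H19 are neighbours that share enhancers and are expressed from opposite parental copies. H19 had 24.5, 612, 345 and 43.0 CPM, the same order of libraries as Igf2. The ratio of highest to lowest was 20.7 for Igf2 and 24.9 for H19, and without 468-4 it was 11.9 and 14.2. The Y-linked gene Ddx3y was read in every library, with 122, 89.8, 117 and 89.8 CPM. Xist, which silences the second X, had 0.170, 0.425, 0.162 and 0.315 CPM. The 4 libraries thus did not differ in the sex these genes mark.

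**Figure D4:**
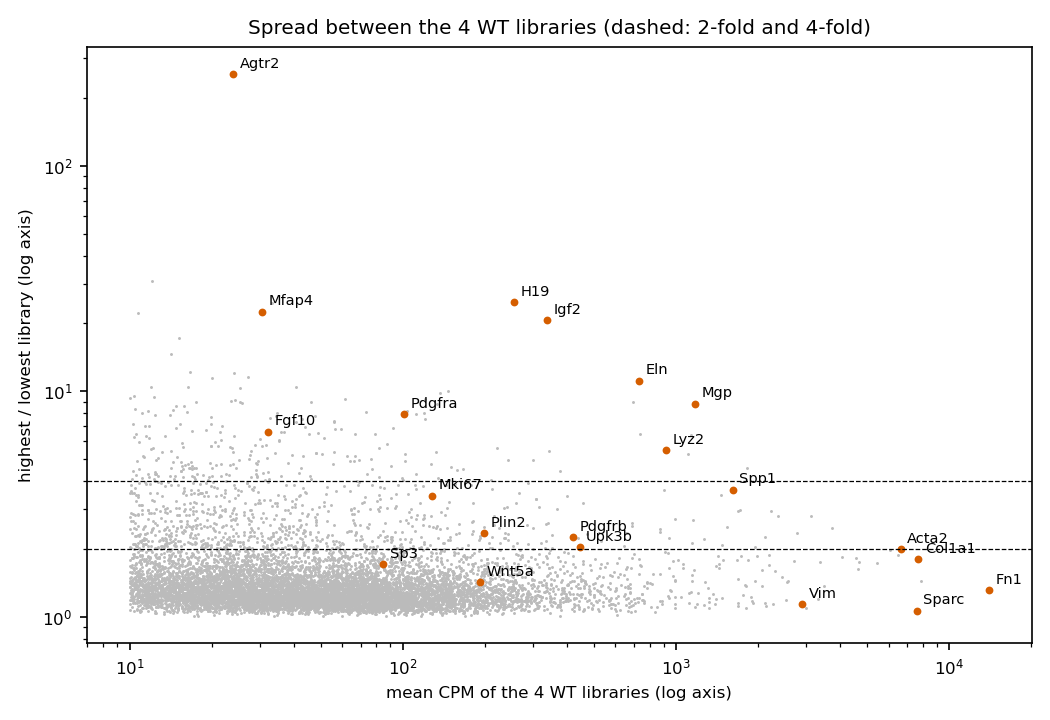
Ratio of the highest to the lowest of the 4 WT libraries against mean CPM for the 9641 genes with a mean of at least 10 CPM, both on log axes, with named genes marked. The dashed 2-fold line is passed by 10.4% of genes and the 4-fold line by 2.42%, while abundant genes such as Fn1, Sparc and Vim lie under both.

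For most genes the 4 cultures were close. The median SD of log2(CPM + 0.5) was 0.17 over 9641 genes, the median ratio of highest to lowest was 1.31, and edgeR's common biological coefficient of variation was 0.215. Without 468-4 the median SD was 0.13 and the coefficient 0.145, and 2.83% of genes passed 2-fold. Library 468-4 was highest for 3377 genes and lowest for 3290. Of the 233 genes over 4-fold, it was highest for 123 and lowest for 94. The most abundant genes were less steady than the rest, with a median SD of 0.305 among the 93 genes over a mean of 1000 CPM against 0.173 among 7462 genes between 10 and 100 CPM.

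**Figure D5:**
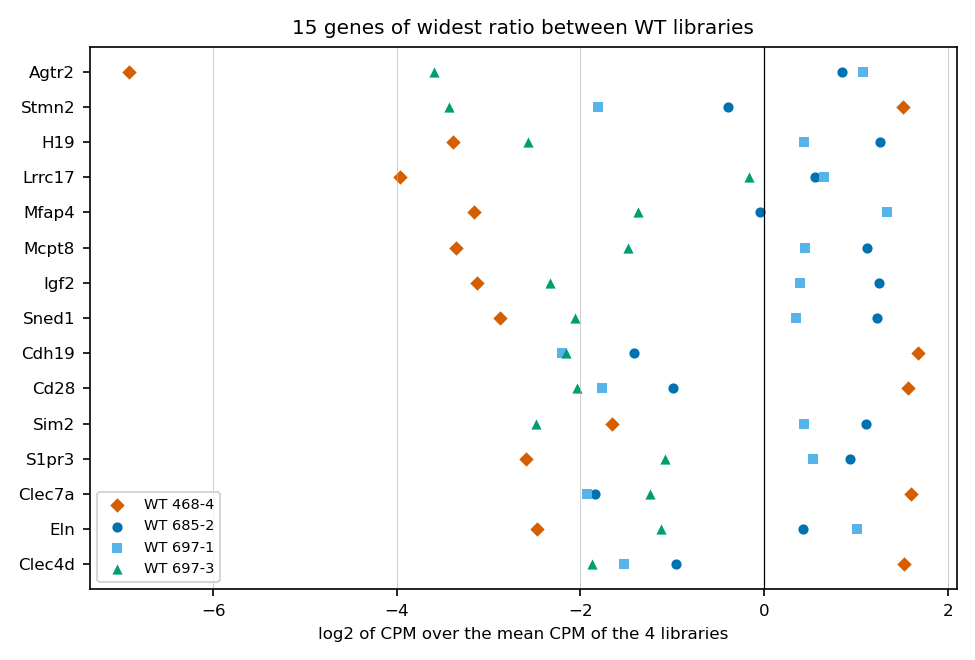
Level of each of the 15 genes of widest ratio in each WT library relative to the mean of the 4, on a log2 axis. Each point is 1 library, and the genes fall into those highest in 468-4 and those highest in 685-2 or 697-1.

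The 15 genes with the widest ratio fell into 2 patterns. Highest in 468-4 were the neuronal gene Stmn2, the glial cadherin Cdh19, the myeloid lectins Clec4d and Clec7a, and Cd28, a costimulatory receptor of lymphocytes. Stmn2 had 34.5, 9.21, 3.45 and 1.12 CPM. Cdh19 had 45.2, 5.31, 3.08 and 3.17 CPM. Clec7a had 60.7, 5.60, 5.28 and 8.49 CPM. Clec4d had 116, 20.8, 14.1 and 11.1 CPM, and Cd28 had 49.3, 8.36, 4.91 and 4.06 CPM. Like the macrophage and glial sums given above, all 5 were highest in 468-4. Among the other 3 libraries the ratio was 8.26 for Stmn2, 1.72 for Cdh19, 1.61 for Clec7a, 1.88 for Clec4d and 2.06 for Cd28.

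Highest in 685-2 or 697-1 were Agtr2, H19, Lrrc17, Mfap4, Mcpt8, Igf2, Sned1, Sim2, S1pr3 and Eln. Agtr2, the angiotensin type 2 receptor of fetal mesenchyme, was widest of all, with 0.198, 43.1, 50.4 and 1.97 CPM. It differed 255 times between 697-1 and 468-4, where 7 reads were counted, and 25.5 times without 468-4. Lrrc17, a secreted leucine-rich repeat protein, had 2.12, 48.7, 52.0 and 29.4 CPM and was low in 468-4 alone. Sned1, a matrix protein, had 2.06, 35.6, 19.3 and 3.63 CPM. The transcription factor Sim2 had 7.67, 52.1, 32.5 and 4.32 CPM. The sphingosine receptor S1pr3 had 4.50, 51.9, 39.1 and 12.8 CPM. In all 3 the libraries 468-4 and 697-3 were the low pair, and without 468-4 the ratios were 9.81 for Sned1, 12.1 for Sim2 and 4.04 for S1pr3. Mcpt8, a protease known from basophils, had 1.05, 23.4, 14.6 and 3.83 CPM.

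At the other end, the 10 narrowest genes differed by at most 1.02 times. The zinc transporter Slc39a7 had 374, 373, 376 and 376 CPM. The RNA cleavage factor Cstf3 had 33.7, 33.9, 34.0 and 33.7 CPM, and the sorting nexin Snx12 had 86.2, 86.8, 86.8 and 87.4 CPM. The other 7 were Ube2z, Snhg18, Osbpl11, Gatsl3, Ammecr1l, Zbtb9 and Gapvd1.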

How the data were processed

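The 4 Sp3+/+ libraries were single end, 50 bp reads from TruSeq libraries of total RNA. Primary cells had been isolated from fetal lungs by collagenase digestion, straining and adhesion to plastic. Per the labels and the study's methods, the authors checked reads with FastQC 0.10.1, aligned them to the mm10 build with STAR 2.4.5a, and assigned them to genes with HTSeq. The annotation release and strand setting are not given in the sources used here, so reads of a gene and of an antisense partner cannot be told apart. The deposited values are unnormalised read counts per gene.

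Here the 5 HTSeq tallies of reads outside genes or not unique were removed and their shares recorded, and counts were scaled to CPM of gene reads. Reads shared by near-identical genes are lost at this step, and unequal gene content moves every CPM. Length-scaled levels used exon lengths of 21919 genes, from canonical transcripts of the GENCODE mouse annotation matched by symbol. Spread was the SD of log2(CPM + 0.5) and the ratio of the highest to the lowest library for genes with a mean of at least 10 CPM. TMM factors and the biological coefficient of variation came from edgeR 4.0.16 in R 4.3.3 with an intercept only. Other steps used Python 3.11.15, pandas 2.3.3 and matplotlib 3.10.9, and were tested on simulated data. No test between groups was run, since 1 group was described, and Dixon's gap rule was applied to single libraries. Pairwise chi-square comparisons of counts found no library deposited 2 times. Precision at a depth of 14113788 to 35351093 reads was limited by libraries rather than counting, and floors of 3 reads cover counting error only.

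Members and the 40 gene lists, with 575 genes of which 1 was not in the files and 7 went under older symbols, were chosen with earlier results of these data known. Apart from items not reported here, genes were named by rule, namely the 25 of highest mean CPM, the 15 of highest length-scaled level, the 6 markers, the 3 of highest mean and the widest of each list, ligands, receptors and lineage-defining genes, the 15 widest and 10 narrowest genes, and Sp3 and Sp1. Named outside it, with values seen, were Anxa2, Actg1, Spp1, Vtn, Mmp14, Mmp9, Myh11, Myocd, Foxf1, Tbx5, Tcf21, Meox2, Hoxb9, Hoxc10, Hoxd10, Hoxd12, Hoxc13, Adipor2, Limch1, Dkk2, Sfrp1, Axin2, Lef1, Gli1, Hhip, Id3, Igfbp2, Cyp26a1, Xist and Rn45s. Alternatives were other scalings, thresholds and pseudocounts, and each library left out.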

Additional observations from a re-analysis of the deposited data

Results flagged for a closer look

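A value was marked when its gap to the nearest of the other 3 libraries exceeded Dixon's 95% critical share of the whole range, a limit that chance passes in about 1 of 20 groups. Of 40 list sums, 6 passed it, and of 192 genes named here, 35 passed it. Over all 9641 genes with a mean of at least 10 CPM, 688 (7.14%) passed it. The named genes were partly chosen for a wide ratio, so their number carries no weight beyond that share, and S100a8, S100a9, Epcam, Bmp7 and Fgfr4 lie near the level of 3 reads in most libraries. Library 468-4 had the highest sum in the lipofibroblast list, at 1479 CPM against 635 to 677 CPM, the neural and glial list, at 115 CPM against 22.5 to 28.9 CPM, the macrophage and myeloid list, at 4118 CPM against 724 to 996 CPM, the lymphoid list, at 40.2 CPM against 5.32 to 9.85 CPM and the retinoic acid list, at 658 CPM against 486 to 509 CPM. The lymphoid sum was mostly 1 gene, Il7r, with 39.2 CPM in 468-4 and 4.75 to 7.79 CPM in the others. Of the 14 lymphoid genes, 12 were above 1 CPM in none of the 4 libraries. The retinoic acid sum did not reflect most of its members. Of its 9 genes with a mean of at least 10 CPM, 3 were highest in 468-4 and 6 were lowest there. The shares of all genes were 35% and 34.1%. Library 697-3 had the highest sum in the smooth muscle contractile list, at 36136 CPM against 19074 to 21271 CPM.

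Genes of blood cells highest in 468-4 were Cxcr4 (45.7 CPM, others 4.38 to 8.24 CPM), Il7r (39.2 CPM, others 4.75 to 7.79 CPM), Lyz2 (2179.8 CPM, others 398 to 617 CPM), Ctss (400.1 CPM, others 40.8 to 53.8 CPM), Csf1r (164 CPM, others 31.9 to 38.8 CPM), Tyrobp (151 CPM, others 20.6 to 26.3 CPM), Ptprc (59.5 CPM, others 10.5 to 11.8 CPM), S100a8 (0.849 CPM, others 0.0286 to 0.122 CPM), S100a9 (1.10 CPM, others 0 CPM), Clec4d (116 CPM, others 11.1 to 20.8 CPM), Clec7a (60.7 CPM, others 5.28 to 8.49 CPM) and Cd28 (49.3 CPM, others 4.06 to 8.36 CPM). Genes of glial, endothelial and epithelial cells highest in 468-4 were Epcam (0.283 CPM, others 0 to 0.0406 CPM), Pecam1 (7.75 CPM, others 0.122 to 0.283 CPM), Cdh5 (8.995 CPM, others 0.143 to 0.425 CPM), Sox10 (18.7 CPM, others 1.77 to 3.33 CPM) and Cdh19 (45.2 CPM, others 3.08 to 5.31 CPM). Other genes highest in 468-4 were Ctsd (6557 CPM, others 2636 to 2988 CPM), Fth1 (4112 CPM, others 896 to 1196 CPM), Col18a1 (131 CPM, others 27.5 to 35.6 CPM), Aldh1a1 (319 CPM, others 59.4 to 79.7 CPM), Plin2 (332 CPM, others 141 to 166 CPM), Cd36 (424 CPM, others 42.4 to 59.7 CPM), Lpl (293 CPM, others 61.6 to 78.6 CPM) and Cdkn2a (240.4 CPM, others 65.1 to 72.8 CPM). In 468-4 the lowest of the 4 values was that of Col1a1 (4856 CPM, others 8618 to 8755 CPM) and Hoxa5 (34.2 CPM, others 64.0 to 67.7 CPM). In 685-2 the highest of the 4 values was that of Bmp7 (0.425 CPM, others 0.0283 to 0.0812 CPM) and Sftpc (4.68 CPM, others 0 to 0.0406 CPM). In 685-2 the lowest of the 4 values was that of Fgf9 (3.26 CPM, others 5.77 to 6.21 CPM). In 697-1 the lowest of the 4 values was that of Fgfr4 (0.0812 CPM, others 0.283 to 0.286 CPM) and Ube2z (168 CPM, others 169.7 to 170.0 CPM). In 697-3 the highest of the 4 values was that of Acta2 (10382 CPM, others 5196 to 5605 CPM) and Mcam (519 CPM, others 244 to 261 CPM). In 697-3 the lowest of the 4 values was that of Fgf10 (6.72 CPM, others 38.6 to 44.6 CPM).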

How the results depend on the processing

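The description changed mainly with library 468-4 and with the filter on low genes. The share of genes over 2-fold between libraries was 10.4% and ranged from 2.83% (without 468-4) to 9.19% as each library was left out, and that over 4-fold was 2.42% and ranged from 0.354% (without 468-4) to 2.26%, with the filter on the mean applied to the 3 libraries kept. With a minimum mean of 1 CPM in place of 10 these shares were 18.995% and 5.03%, and with 50 CPM they were 6.89% and 1.41%. Taking the 25 most abundant genes out of the library size raised the share of these 25 from 11.8% to 13.4% and that of the top 100 from 23.2% to 26.3%, by construction. Of the 25 genes that led by CPM, 14 stayed in the top 25 after scaling by exon length. The number of genes above 1 CPM in all libraries, 12505, became 13229 at 0.5 CPM and 10353 at 5 CPM. In the lists of other cell types, 60 genes were above 1 CPM in all 4, 69 at 0.5 CPM and 47 at 5 CPM. The matrix sum moved by less than its SD under both other scalings. The median SD of log2(CPM + 0.5), 0.170, became 0.169 with TMM factors and 0.170 without the 25 most abundant genes in the library size. For single named genes, 37 of 408 rescaled means moved by more than 1 SD, and for list sums 7 of 82 rescaled sums did. Leaving out 1 of 4 libraries cannot move a mean by 1 SD, so the ratios without 468-4 in the text carry that comparison. An alternative without mitochondrially encoded genes was not run because the files used here hold none. The coefficient of variation was recomputed only for left-out libraries. No paired analysis was possible because only 1 group was described.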

Other observations

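Library 468-4 also had the most genes above 1 CPM in a single library, 269, against 98 for 685-2, 52 for 697-1 and 58 for 697-3. The ribosomal RNA precursor Rn45s had 2195, 2455, 1075 and 3176 CPM. Its level can vary with library preparation, and the study's methods name no step that removes ribosomal RNA.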
